A study of Homo sapiens with 6 samples.

Results

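The 9 genes described here are CD44, VIM, LGALS1, S100A4, S100A6, S100A10, S100A11, ANXA1 and ANXA2, taken by gene symbol from the 23844 genes with a summed expression value. They were chosen by their FPKM in these libraries, because most of them are low in the drug-resistant ones, so their low values there are a description and were not tested. Of the 9 genes, 8 reached 1 FPKM or more in at least 1 library, as did 12337 genes in all, and ANXA1 did not. FPKM are fragment numbers divided by the length of the transcript and by the mapped fragments of the library, and a gene's value here is the sum over its isoforms.

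RNA with a polyA tail was sequenced from 2 human lymphoma lines, DOHH2, which the labels tie to follicular lymphoma, and DAUDI, which they tie to Burkitt lymphoma. Each line was sequenced as an ibrutinib-resistant, an idelalisib-resistant and a WT-labelled culture, with 1 library for each of the 6 groups and so no replicate. Ibrutinib inhibits the kinase BTK and idelalisib inhibits PI3K delta, kinases that carry signals from the B cell receptor. The sources used here do not state drug doses, the time under drug, or whether a resistant culture was 1 clone or a pool.

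CD44 is a cell-surface receptor for hyaluronan that takes part in lymphocyte adhesion and homing, and in normal lymphoid tissue it is low on germinal centre B cells and higher on naive, memory and plasma cells. Vimentin, encoded by VIM, forms intermediate filaments in mesenchymal and many blood cells, and galectin-1, encoded by LGALS1, is a secreted lectin that binds beta-galactoside sugars on glycoproteins. S100 proteins are small proteins of the EF-hand type, most of which bind calcium, and annexins bind membrane phospholipids in a calcium-dependent way. S100A10 and annexin A2 form a complex at the plasma membrane, and S100A11 binds annexin A1.

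The libraries did not group by line alone. Across the 12337 genes, the WT-labelled libraries of DOHH2 and DAUDI had a Pearson r of 0.958 on the log2(FPKM + 1) scale, and 135 genes differed between them by 1 or more on that scale. Each WT-labelled library had an r of 0.698 to 0.723 with the 4 resistant libraries, while resistant libraries of different lines had 0.815 to 0.835 and those of 1 line 0.968 (DOHH2) and 0.943 (DAUDI). Each difference against a WT-labelled library below therefore holds for the library that carries that label, and the contrasts of line and of drug were made within the 4 resistant libraries alone. All 9 B cell markers were at 1 FPKM or more in every library, including MS4A1, which encodes CD20. Relative depth, read as coverage per FPKM against the WT-labelled DAUDI library, was 0.935, 0.975 and 0.979 in ibrutinib-resistant, idelalisib-resistant and WT-labelled DOHH2, and 1.42 and 1.04 in ibrutinib-resistant and idelalisib-resistant DAUDI.

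The stretches directly before the starts of 7 of the genes are shown because these genes share low values in resistant libraries, with the exception of S100A10 in DOHH2, whose neighbour S100A11 did not share it. RefSeq entries on GRCh38.p14 were matched by symbol for 8 of the 9 genes. Their starts were not compared with those of the transcripts behind the FPKM, which are on the older genome build hg19. The CG and motif counts below depend on the start used. Each line gives 150 bases on the gene's own strand, with CG pairs, the sites of DNA methylation in vertebrates, in capitals. S100A10 (chr1:151993860-151994009), S100A11 (chr1:152037005-152037154), S100A6 (chr1:153535992-153536141), S100A4 (chr1:153545807-153545956) and ANXA2 (chr15:60397987-60398136) are read from the minus strand, and CD44 (chr11:35139021-35139170) and VIM (chr10:17228091-17228240) from the plus strand.
S100A10: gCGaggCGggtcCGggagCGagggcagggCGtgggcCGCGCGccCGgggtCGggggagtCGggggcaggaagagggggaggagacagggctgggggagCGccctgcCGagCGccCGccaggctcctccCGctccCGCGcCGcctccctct
S100A11: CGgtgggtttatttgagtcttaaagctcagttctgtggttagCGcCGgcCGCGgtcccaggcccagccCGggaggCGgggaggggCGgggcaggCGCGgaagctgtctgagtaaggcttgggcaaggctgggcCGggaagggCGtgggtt
S100A6: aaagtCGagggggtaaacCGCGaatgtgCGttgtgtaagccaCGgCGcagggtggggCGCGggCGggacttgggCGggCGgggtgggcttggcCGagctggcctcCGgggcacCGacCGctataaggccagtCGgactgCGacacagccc
S100A4: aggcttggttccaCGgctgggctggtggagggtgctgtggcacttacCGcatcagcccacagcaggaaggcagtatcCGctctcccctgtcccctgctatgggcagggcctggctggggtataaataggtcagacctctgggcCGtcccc
CD44: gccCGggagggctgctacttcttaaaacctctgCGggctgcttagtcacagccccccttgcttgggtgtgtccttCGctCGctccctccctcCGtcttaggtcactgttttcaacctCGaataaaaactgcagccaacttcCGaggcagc
VIM: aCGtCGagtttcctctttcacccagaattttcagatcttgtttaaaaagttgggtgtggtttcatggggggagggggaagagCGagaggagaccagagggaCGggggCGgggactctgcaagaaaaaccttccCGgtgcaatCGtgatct
ANXA2: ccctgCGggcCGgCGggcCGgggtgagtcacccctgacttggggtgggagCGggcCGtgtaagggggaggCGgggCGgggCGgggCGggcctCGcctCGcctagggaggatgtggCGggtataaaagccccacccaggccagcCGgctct

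In the 250 bases before the start, S100A10 and S100A6 each had 24 CG pairs, S100A11 and CD44 15 each, ANXA2 28, VIM 8, S100A4 7 and ANXA1 0. The median was 11 over 27305 promoters and 21 over the 8939 promoters of genes kept, so members lay on both sides of it. S100A10, which was high in resistant DOHH2, had the same number as S100A6, which was listed at 0 there. Motifs were searched on both strands of the same 250 bases. The TATA box TATAAA, found in 11.1% of all promoters and 5.01% of those of genes kept, began 31 bases before the start in S100A4, ANXA1 and ANXA2. The GC box GGGCGG, found in 42.3% of all promoters and 66.8% of those of genes kept, occurred 3 times each in S100A6 and ANXA2, where neighbouring matches shared bases, 2 times in CD44, and once each in VIM, S100A10 and S100A11. The AP-1 motif TGANTCA (6.60% of all promoters and 3.65% of those of genes kept) was in ANXA2, the E-box CACCTG (17.5% and 15.8%) in S100A4, and the CCAAT box CCAAT (33.0% and 35.9%) 2 times in ANXA1. No motif of the 5 was found in all 8 promoters, and DNA methylation was not measured in these libraries.

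S100A10 was the gene of the 9 on which the lines differed most. It had 60.2 FPKM in ibrutinib-resistant and 38.9 FPKM in idelalisib-resistant DOHH2, against 37.3 FPKM in WT-labelled DOHH2. In DAUDI it had 0.0238 FPKM in ibrutinib-resistant cells and was listed at 0 in idelalisib-resistant cells, against 39.9 FPKM in WT-labelled DAUDI. The idelalisib-resistant DOHH2 library thus lay between the WT-labelled libraries and the ibrutinib-resistant one above both, while both resistant DAUDI libraries were near or at 0. The differences in log2(FPKM + 1), resistant minus WT-labelled, were 0.68 (ibrutinib) and 0.06 (idelalisib) in DOHH2 and -5.32 (ibrutinib) in DAUDI. The difference of 0.06 turned to -0.12 with median of ratios scaling, so no direction is given for it.

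S100A11, S100A6 and S100A4 gave the other pattern, with low values in resistant libraries of both lines. S100A11, whose protein pairs with annexin A1, was listed at 0 in both resistant DOHH2 libraries, against 24.0 FPKM in WT-labelled DOHH2. In DAUDI it had 0.0553 FPKM in ibrutinib-resistant and 0.0754 FPKM in idelalisib-resistant cells, against 24.4 FPKM in WT-labelled cells. S100A6, also called calcyclin, was listed at 0 in both resistant DOHH2 libraries against 49.3 FPKM in WT-labelled DOHH2, and had 0.0881 FPKM (ibrutinib) and 0.0601 FPKM (idelalisib) in resistant DAUDI against 61.4 FPKM in WT-labelled DAUDI. S100A4, which binds non-muscle myosin and is used as a marker of motile cells, was likewise listed at 0 in both resistant DOHH2 libraries, against 43.6 FPKM in WT-labelled DOHH2. In DAUDI it was the least depleted S100 gene of the 4, with 1.73 FPKM in ibrutinib-resistant and 0.491 FPKM in idelalisib-resistant cells, against 55.6 FPKM in WT-labelled cells.

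CD44 had the highest level of the 9 genes in both WT-labelled libraries and was under 1 FPKM in all 4 resistant libraries. It had 0.0205 FPKM in ibrutinib-resistant DOHH2 and was listed at 0 in idelalisib-resistant DOHH2, against 279 FPKM in WT-labelled DOHH2. In DAUDI it had 0.334 FPKM in ibrutinib-resistant and 0.330 FPKM in idelalisib-resistant cells, against 277 FPKM in WT-labelled cells. The differences of log2(FPKM + 1) were -7.70 and -7.71 in ibrutinib-resistant and idelalisib-resistant DAUDI. Nearly all of the CD44 signal came from 1 of its 8 isoforms, the 4589-nt transcript of the standard form without variable exons. This isoform held 95.5% of the CD44 FPKM in WT-labelled DOHH2 and 96.3% in WT-labelled DAUDI, and 96.5% in ibrutinib-resistant and 61.6% in idelalisib-resistant DAUDI, where the whole gene was at or under 0.334 FPKM. In WT-labelled DAUDI the isoform of 4793 nt followed with 4.79 FPKM. In WT-labelled DOHH2 the isoform of 2261 nt followed with 4.93 FPKM, and then that of 4793 nt with 4.66 FPKM.

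VIM was listed at 0 in ibrutinib-resistant DOHH2 and had 0.0149 FPKM in idelalisib-resistant DOHH2, against 182 FPKM in WT-labelled DOHH2. In DAUDI it had 0.285 FPKM in ibrutinib-resistant and 0.307 FPKM in idelalisib-resistant cells, against 163 FPKM in WT-labelled cells. These are differences of -6.99 and -6.97 in log2(FPKM + 1) for ibrutinib-resistant and idelalisib-resistant DAUDI.

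LGALS1 was the highest in resistant DOHH2 of the genes lower in both lines, and no library listed it at 0. It had 14.7 FPKM in ibrutinib-resistant and 1.68 FPKM in idelalisib-resistant DOHH2, against 199.6 FPKM in WT-labelled DOHH2. In DAUDI it had 0.677 FPKM in ibrutinib-resistant and 0.336 FPKM in idelalisib-resistant cells, against 242 FPKM in WT-labelled cells. The order from high to low was therefore WT-labelled DAUDI, WT-labelled DOHH2, ibrutinib-resistant DOHH2, idelalisib-resistant DOHH2 and then both resistant DAUDI libraries, which were under 1 FPKM and are not ordered. On the log2(FPKM + 1) scale LGALS1 differed from WT-labelled cells by -3.67 (ibrutinib) and -6.22 (idelalisib) in DOHH2, and by -7.18 and -7.51 in DAUDI.

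ANXA2, which encodes the phospholipid-binding partner of S100A10, was listed at 0 in both resistant DOHH2 libraries, against 15.1 FPKM in WT-labelled DOHH2. It had 0.743 FPKM in ibrutinib-resistant and 0.0201 FPKM in idelalisib-resistant DAUDI, against 20.6 FPKM in WT-labelled DAUDI. In resistant DOHH2, S100A10 was thus high while ANXA2 was listed at 0. ANXA2 has near-identical pseudogenes, and ANXA2P2 had 0 FPKM in both resistant DOHH2 libraries against 54.9 FPKM in WT-labelled DOHH2, and 2.82 FPKM (ibrutinib) and 0.0990 FPKM (idelalisib) in resistant DAUDI against 69.3 FPKM in WT-labelled DAUDI. Since ANXA2P2 had the higher values, reads may have been split between them, and the ANXA2 level is uncertain. Summed over ANXA2 and 3 pseudogenes, the values were 0 FPKM in both resistant DOHH2 libraries against 70.6 FPKM in WT-labelled DOHH2, and 3.61 FPKM (ibrutinib) and 0.119 FPKM (idelalisib) in resistant DAUDI against 90.5 FPKM in WT-labelled DAUDI, so the direction was the same.

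ANXA1, which encodes an anti-inflammatory annexin, was under 0.1 FPKM in every library. It was listed at 0 in both resistant DOHH2 libraries and had 0.0244 FPKM in WT-labelled DOHH2, and it had 0.0167 FPKM (ibrutinib) and 0.0457 FPKM (idelalisib) in resistant DAUDI and was listed at 0 in WT-labelled DAUDI. No direction can be given for it.

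**Figure D1:**
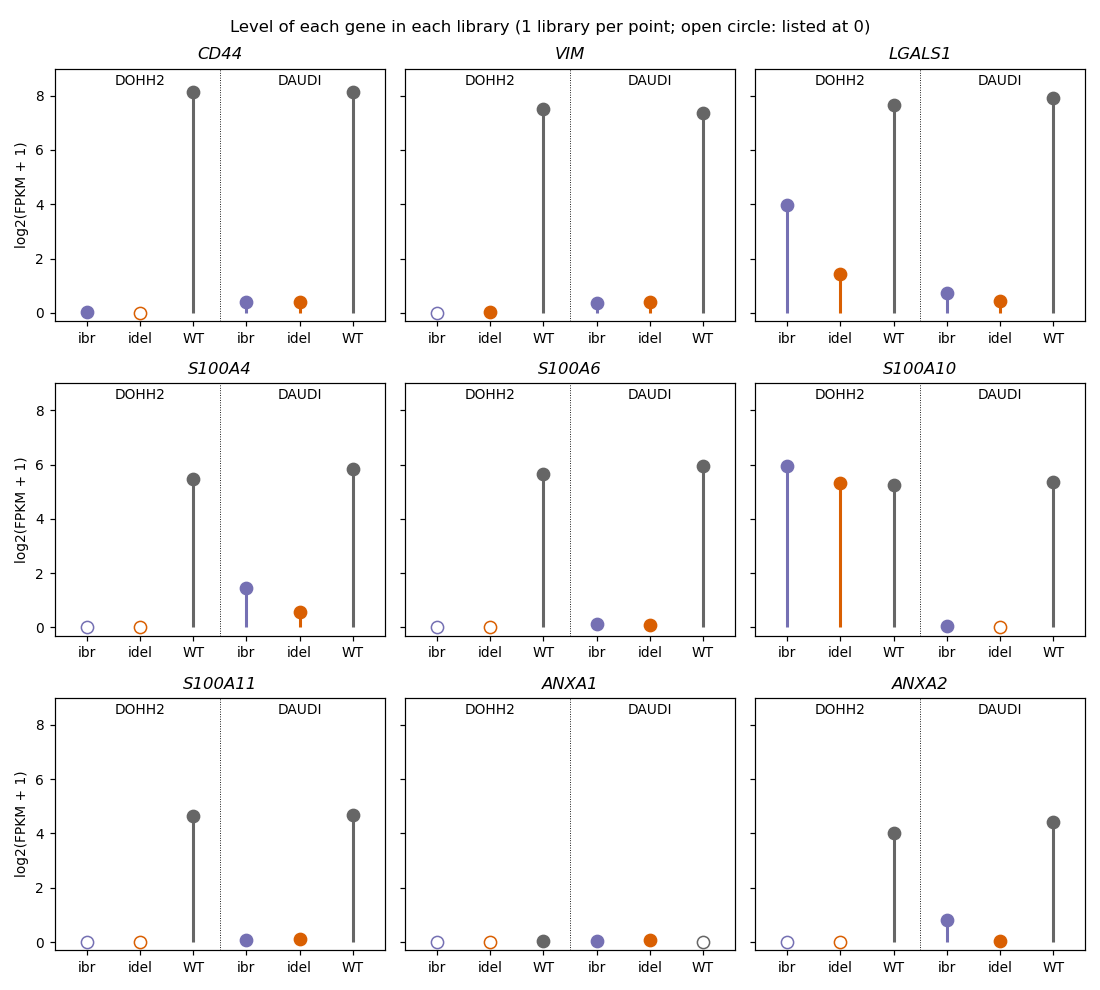
Level of each of the 9 genes as log2(FPKM + 1), 1 panel per gene and 1 point per library (ibr, ibrutinib-resistant; idel, idelalisib-resistant; WT, WT-labelled; DOHH2 left of the dotted line, DAUDI right of it), with open circles for values listed at 0. S100A10 is high in resistant DOHH2 (60.2 and 38.9 FPKM), LGALS1 is intermediate in ibrutinib-resistant DOHH2 (14.7 FPKM), and ANXA1 is near 0 throughout.

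The genes lie on 6 chromosomes by the files' hg19 coordinates. CD44 spans chr11:35160417-35253949, VIM chr10:17270258-17279592, LGALS1 chr22:38071613-38075809, ANXA1 chr9:75766781-75785307 and ANXA2 chr15:60639350-60690185. The 4 S100 genes lie in the S100 cluster of chromosome 1, S100A10 at chr1:151955386-151966714, S100A11 at chr1:152004982-152009511, S100A6 at chr1:153507076-153508717 and S100A4 at chr1:153516095-153518282. The lowest coordinates of S100A10 and S100A11 lie 49.6 kb apart with no other S100 gene between them, and they had opposite states in resistant DOHH2.

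Within the same cluster, S100A13, which takes part in release of growth factors without a signal peptide, had 6.67 FPKM in ibrutinib-resistant and 7.25 FPKM in idelalisib-resistant DOHH2, against 31.9 FPKM in WT-labelled DOHH2. In DAUDI it had 4.46 FPKM (ibrutinib) and 5.54 FPKM (idelalisib) in resistant cells, against 29.8 FPKM in WT-labelled cells, so it was lower but did not approach 0. S100A7, an antimicrobial protein of skin also called psoriasin, had the reverse pattern in DAUDI alone, with 7.81 FPKM in ibrutinib-resistant and 12.8 FPKM in idelalisib-resistant cells, while it was listed at 0 in WT-labelled DAUDI and in all 3 DOHH2 libraries. Outside the cluster, S100Z had 13.6 FPKM (ibrutinib) and 12.7 FPKM (idelalisib) in resistant DOHH2 against 0.0626 FPKM in WT-labelled DOHH2, and it was under 0.1 FPKM in the 3 DAUDI libraries. Low S100 levels in resistant cells were thus not shared by the whole family.

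**Figure D2:**
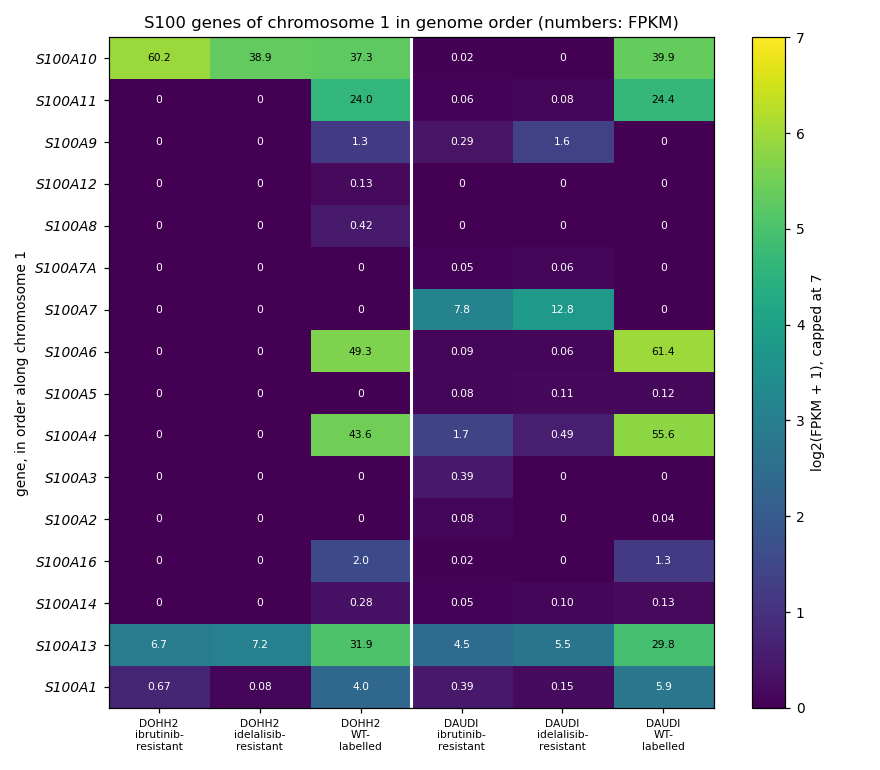
S100 genes of chromosome 1 in genome order from top to bottom, with colour giving log2(FPKM + 1) and the printed number giving FPKM in each of the 6 libraries. S100A10 (top row) is high in both resistant DOHH2 libraries while its neighbour S100A11 is listed at 0 there, and S100A7 is above 1 FPKM in resistant DAUDI alone.

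Listed zeros among the 9 genes were more frequent in resistant DOHH2 than in resistant DAUDI. Of the 9 genes, 6 were listed at 0 in ibrutinib-resistant and 6 in idelalisib-resistant DOHH2, where 6.78% and 7.19% of all genes kept were listed at 0, and none was listed at 0 in WT-labelled DOHH2 (3.32% of genes kept). In DAUDI none was listed at 0 in ibrutinib-resistant cells (3% of genes kept), 1, S100A10, in idelalisib-resistant cells (3.53%), and 1, ANXA1, in WT-labelled cells (2.74%). Both resistant DOHH2 libraries listed S100A4, S100A6, S100A11, ANXA1 and ANXA2 at 0, VIM was at 0 in the ibrutinib-resistant and CD44 in the idelalisib-resistant one. Without read counts, no upper limit can be put on the level behind a listed 0. With a bound of 0.1 FPKM in place of 0, the number over the 4 resistant libraries was 23 values instead of 13, and by library it was 7 and 7 of 9 genes in ibrutinib-resistant and idelalisib-resistant DOHH2 and 4 and 5 of 9 in ibrutinib-resistant and idelalisib-resistant DAUDI. Under 1 FPKM were 7 and 7 of 9 genes in ibrutinib-resistant and idelalisib-resistant DOHH2 and 8 and 9 of 9 in ibrutinib-resistant and idelalisib-resistant DAUDI. At that bound the counts were higher in DAUDI, so the order of the lines depends on the bound. Of genes at 10 FPKM or more in the WT-labelled library of their line, 6.18% (ibrutinib) and 6.57% (idelalisib) were under 1 FPKM in resistant DOHH2. In resistant DAUDI the shares were 5.51% and 5.41%. No such share is given for 0.1 FPKM, and ANXA1, not kept, is in every count under 0.1 or 1 FPKM. No line difference is read from these counts. None of 15 housekeeping genes was listed at 0 in any library, and the lowest of them was at 3.81 FPKM or more.

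Of the 8 genes kept, those lower by 1 or more in log2(FPKM + 1) than the WT-labelled library numbered 7 in ibrutinib-resistant DOHH2 (15.7% of all genes kept), 7 in idelalisib-resistant DOHH2 (15.7%), 8 in ibrutinib-resistant DAUDI (14.6%) and 8 in idelalisib-resistant DAUDI (15.8%). Nothing is read from these shares, because the genes were listed for this contrast. The median difference of the 8 genes, with a listed 0 entered as 0, was -5.06 and -5.57 in ibrutinib-resistant and idelalisib-resistant DOHH2, where the median of all genes kept was 0.03 and 0.08. It was -5.58 and -5.62 in ibrutinib-resistant and idelalisib-resistant DAUDI, beside 0.18 and 0.05 for all genes kept. The comparisons of both drugs within a line share 1 WT-labelled library, so they are not independent. Among genes at 10 FPKM or more in the WT-labelled library of a line, 5.81% in DOHH2 and 4.85% in DAUDI were under 1 FPKM in both resistant libraries, as were 6 members in DOHH2 and 7 in DAUDI. Among genes at 10 FPKM or more in both WT-labelled libraries, 135 of 4683 (2.88%) were under 1 FPKM in all 4 resistant libraries, and CD44, VIM, S100A6, S100A11 and ANXA2 are 5 of these 135.

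**Figure D3:**
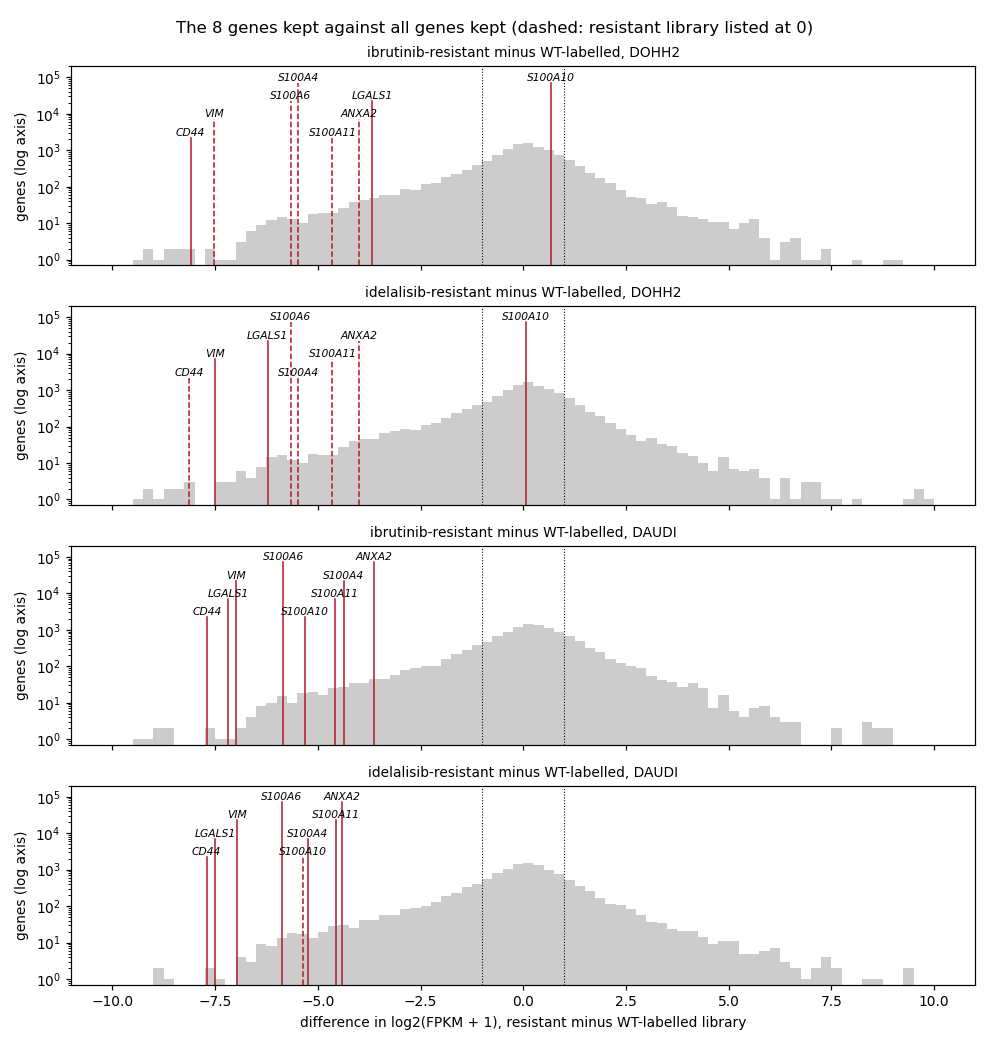
Difference in log2(FPKM + 1) between each resistant library and the WT-labelled library of its line, in 4 panels, with grey bars giving the number of genes kept on a log axis and red lines the 8 members (dashed where the resistant library lists 0; their height has no meaning). Dotted lines mark a difference of 1 in either direction; all members lie left of -3 except S100A10 in DOHH2, at 0.68 and 0.06.

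Whether the lines differed was examined within the resistant libraries. Between ibrutinib-resistant libraries, DOHH2 minus DAUDI, 3 of the 8 genes differed by 1 or more (22% of all genes kept): S100A10 by 5.90 and LGALS1 by 3.23, while S100A4 was listed at 0 in DOHH2 and had 1.73 FPKM in DAUDI. Between idelalisib-resistant libraries 2 of the 8 genes did (18.7%): LGALS1 by 1.01, and S100A10, with 38.9 FPKM in DOHH2 while it was listed at 0 in DAUDI. The median difference of the 8 genes was -0.24 (ibrutinib) and -0.09 (idelalisib), beside -0.11 and 0.00 for all genes kept.

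For both drugs together, limma was fitted to the 4 resistant libraries with line and drug as terms, with p-values adjusted by Benjamini-Hochberg over 12337 genes. S100A10 was higher in DOHH2 than in DAUDI by 5.61 on the log2(FPKM + 1) scale (standard error 0.24, 95% interval 4.82 to 6.39, limma adjusted p = 0.0119), in the same direction under both drugs. Both DAUDI values were near or at 0, so the pseudocount sets this size. It was 8.77 (95% interval 7.95 to 9.58) with a pseudocount of 0.1 and 3.42 (2.76 to 4.07) with 5. Only the direction is therefore read, and no size. Of all genes kept, 868 (7.04%) were higher and 1046 (8.48%) lower in DOHH2 at an adjusted p under 0.05. CD44 and VIM also passed, with differences of -0.40 for CD44 (limma adjusted p = 0.0249) and -0.36 for VIM (limma adjusted p = 0.0269), but no line difference is read from this. They were kept only for their WT-labelled levels, all 4 values of each in the fit were at or under 0.334 FPKM, and the limma adjusted p was 0.0558 and 0.0632 with a pseudocount of 5 and 0.128 and 0.142 with no trend. LGALS1 was higher by 2.12 in DOHH2 with a standard error of 0.66 and a limma adjusted p of 0.140, which did not pass. S100A4, S100A6, S100A11 and ANXA2 are listed at 0 in both DOHH2 libraries, so no size is given. Their limma adjusted p-values, 0.105, 0.151, 0.172 and 0.300, did not pass. With a pseudocount of 0.1, S100A4, S100A6 and S100A11 passed (limma adjusted p = 0.0478, 0.0409 and 0.0402) and ANXA2 did not. Whether these genes pass depends on the pseudocount, so neither a line difference nor its absence is read. The fit has drug as a term and 1 residual degree of freedom. Its spread for a gene is therefore how far the drug difference varied between the lines, moderated by a trend over all genes, with no replicate cultures. With no filter on low values no gene passed, and the S100A10 adjusted p was 0.151 by limma with the same difference.

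Whether the drugs differed was examined in the same libraries, ibrutinib-resistant minus idelalisib-resistant. In DOHH2, 1 of the 8 genes differed by 1 or more (1.08% of all genes kept): LGALS1 by 2.55, with 14.7 FPKM in ibrutinib-resistant against 1.68 FPKM in idelalisib-resistant cells. In DAUDI no gene of the 8 did (3.5%): LGALS1 differed by 0.33, S100A4 by 0.87 and ANXA2 by 0.77. The median difference of the 8 genes was 0 in DOHH2 and 0.04 in DAUDI, beside -0.02 and 0.14 for all genes kept. Relative depth was 1.42 in ibrutinib-resistant and 1.04 in idelalisib-resistant DAUDI, and its part in the DAUDI differences of LGALS1, S100A4 and ANXA2, all between levels under 2 FPKM, was not tested. Over both lines limma called 0 genes (0%) at an adjusted p under 0.05, with 212 genes at an unadjusted p under 0.05. LGALS1 had a difference of 1.44 (standard error 0.66, 95% interval -0.69 to 3.57, limma adjusted p = 1), which did not pass. The interval for S100A10 was -0.46 to 1.11, with both resistant DAUDI values near or at 0. For CD44 it was -0.11 to 0.14, and -0.28 to 0.57 with a pseudocount of 0.1. All 4 CD44 values were at or under 0.334 FPKM, where the pseudocount sets the width. No range of drug differences is therefore read from the intervals of genes this low.

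Genes related to the 9 by family or partner did not share 1 pattern. Members of each list are counted as lower or higher than the WT-labelled library by 1 or more in log2(FPKM + 1); the shares of all genes lower are given above, and those higher were 14.9% and 16% in ibrutinib-resistant and idelalisib-resistant DOHH2 and 20.2% and 15.3% in ibrutinib-resistant and idelalisib-resistant DAUDI. Of 16 other S100 genes, 7 were kept, of which 4 were lower in each of the 4 resistant libraries.

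Of 12 other annexin genes, 5 were kept, with 2, 2, 2 and 3 lower and 1 higher in ibrutinib-resistant DOHH2, idelalisib-resistant DOHH2, ibrutinib-resistant DAUDI and idelalisib-resistant DAUDI. ANXA5, the annexin used to stain dying cells, was listed at 0 in ibrutinib-resistant DOHH2 and had 0.0209 FPKM in idelalisib-resistant DOHH2, against 96.5 FPKM in WT-labelled DOHH2. In DAUDI it stayed at 57.0 FPKM (ibrutinib) and 33.9 FPKM (idelalisib) in resistant cells, against 86.0 FPKM in WT-labelled cells. ANXA6 had 0.490 FPKM (ibrutinib) and 0.172 FPKM (idelalisib) in resistant DOHH2 against 40.9 FPKM in WT-labelled DOHH2, and 17.8 FPKM (ibrutinib) and 15.4 FPKM (idelalisib) in resistant DAUDI against 37.4 FPKM in WT-labelled DAUDI. Between lines, ANXA5 and ANXA6 were lower in resistant DOHH2 (differences -5.48 and -3.73) and ANXA11 higher (difference 1.42, limma adjusted p = 0.0119, 0.0119 and 0.0248). These genes, and SRGN, CRIP1, CAPG and CNN2 below, were named for their differences from WT-labelled libraries. Those differences use the same 4 resistant libraries as limma, so the p-values describe these genes and are not independent support. ANXA4 was the annexin that was higher in resistant cells, with 6.75 FPKM (ibrutinib) and 10.4 FPKM (idelalisib) in DOHH2 against 0.651 FPKM in WT-labelled DOHH2, and 8.55 FPKM and 8.41 FPKM in DAUDI against 1.82 FPKM in WT-labelled DAUDI.

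Of 13 other galectin genes 3 were kept. LGALS3, which encodes galectin-3, was listed at 0 in both resistant DOHH2 libraries against 51.8 FPKM in WT-labelled DOHH2, and had 0.0511 FPKM in ibrutinib-resistant DAUDI and a listed 0 in idelalisib-resistant DAUDI against 51.8 FPKM in WT-labelled DAUDI. LGALS9 was higher, with 4.36 FPKM (ibrutinib) and 6.74 FPKM (idelalisib) in resistant DOHH2 against 1.57 FPKM in WT-labelled DOHH2, and 25.7 FPKM and 15.0 FPKM in resistant DAUDI against 1.57 FPKM in WT-labelled DAUDI. LGALS8 had 7.11 FPKM (ibrutinib) and 5.02 FPKM (idelalisib) in resistant DOHH2 against 1.22 FPKM in WT-labelled DOHH2. In DAUDI it had 0.00326 FPKM (ibrutinib) and a listed 0 (idelalisib) in resistant cells against 0.558 FPKM in WT-labelled cells. The difference between the resistant lines was 2.80, but LGALS8 was kept only for its DOHH2 levels, so no support for it is drawn from limma.

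Of 9 genes listed for binding to galectin-1, not all of them glycoproteins, 6 were kept, among them the surrogate light chain genes VPREB1 and IGLL1. Of these, 4 were higher and 0 lower in each resistant DOHH2 library, and 3 higher and 1 lower in each resistant DAUDI library. VPREB1 and IGLL1 were among the higher in every resistant library. The gene lower in resistant DAUDI was SPN, which encodes CD43 and is named after its values were seen. Its differences were 2.62 (ibrutinib) and 2.64 (idelalisib) in DOHH2 and -1.69 and -1.80 in DAUDI. LGALS3BP, a secreted ligand of galectins, had 12.9 FPKM (ibrutinib) and 22.3 FPKM (idelalisib) in resistant DOHH2 against 1.02 FPKM in WT-labelled DOHH2, and 72.3 FPKM and 17.0 FPKM in resistant DAUDI against 0.680 FPKM in WT-labelled DAUDI. VPREB1, part of the surrogate light chain of precursor B cells, had 1.69 FPKM (ibrutinib) and 4.33 FPKM (idelalisib) in resistant DOHH2 and 20.4 FPKM and 18.7 FPKM in resistant DAUDI, and was listed at 0 in both WT-labelled libraries. IGLL1, the other surrogate light chain gene, had 11.2 FPKM (ibrutinib) and 3.19 FPKM (idelalisib) in resistant DOHH2 against 0.0176 FPKM in WT-labelled DOHH2, and 37.8 FPKM and 2.89 FPKM in resistant DAUDI against 0.119 FPKM in WT-labelled DAUDI.

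Of 14 hyaluronan and CD44 ligand genes 7 were kept, with 4, 3, 3 and 3 lower in ibrutinib-resistant DOHH2, idelalisib-resistant DOHH2, ibrutinib-resistant DAUDI and idelalisib-resistant DAUDI. SPP1, which encodes the CD44 ligand osteopontin, was listed at 0 in both resistant DOHH2 libraries against 68.4 FPKM in WT-labelled DOHH2, and was listed at 0 in ibrutinib-resistant DAUDI and at 0.0210 FPKM in idelalisib-resistant DAUDI against 21.8 FPKM in WT-labelled DAUDI. SRGN, which encodes the proteoglycan serglycin, kept 5.96 FPKM (ibrutinib) and 2.74 FPKM (idelalisib) in resistant DAUDI against 86.3 FPKM in WT-labelled DAUDI, but had a listed 0 and 0.0331 FPKM in ibrutinib-resistant and idelalisib-resistant DOHH2 against 85.4 FPKM in WT-labelled DOHH2. SRGN was lower in resistant DOHH2 than in resistant DAUDI (difference -2.33, limma adjusted p = 0.0365). MIF, a cytokine that binds the CD74 and CD44 receptor complex, had 531 FPKM (ibrutinib) and 486 FPKM (idelalisib) in resistant DOHH2 against 488 FPKM in WT-labelled DOHH2. In DAUDI MIF had 858 FPKM (ibrutinib) and 674 FPKM (idelalisib) in resistant cells against 422 FPKM in WT-labelled cells, and the ibrutinib difference made it the 1 gene of the list called higher there.

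Of 16 genes for CD44 linkers, sheddases and splicing regulators 14 were kept, with 2 lower in each of the 4 resistant libraries and 2, 2, 5 and 3 higher in ibrutinib-resistant DOHH2, idelalisib-resistant DOHH2, ibrutinib-resistant DAUDI and idelalisib-resistant DAUDI. RDX, which encodes radixin, a linker of CD44 to actin, was listed at 0 in both resistant DOHH2 libraries against 8.14 FPKM in WT-labelled DOHH2, and had 0.0199 FPKM in ibrutinib-resistant DAUDI and a listed 0 in idelalisib-resistant DAUDI against 7.84 FPKM in WT-labelled DAUDI. ANK3, which encodes the membrane linker ankyrin-G, had 13.9 FPKM (ibrutinib) and 14.8 FPKM (idelalisib) in resistant DOHH2 against 0.129 FPKM in WT-labelled DOHH2, and 0.0296 FPKM and 0.0145 FPKM in resistant DAUDI against 0.126 FPKM in WT-labelled DAUDI. ADAM17, a protease that sheds surface proteins, was higher in resistant cells, with 14.3 FPKM (ibrutinib) and 16.1 FPKM (idelalisib) in DOHH2 against 7.52 FPKM in WT-labelled DOHH2, and 31.5 FPKM and 30.1 FPKM in DAUDI against 7.16 FPKM in WT-labelled DAUDI.

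Of 17 partners and receptors of annexins and S100 proteins 8 were kept, of which 2, 2, 3 and 2 were lower in ibrutinib-resistant DOHH2, idelalisib-resistant DOHH2, ibrutinib-resistant DAUDI and idelalisib-resistant DAUDI. AHNAK, a very large protein that binds the complex of S100A10 and annexin A2, had 0.0157 FPKM (ibrutinib) and 0.0136 FPKM (idelalisib) in resistant DOHH2 against 48.8 FPKM in WT-labelled DOHH2, and 0.121 FPKM and 0.116 FPKM in resistant DAUDI against 39.9 FPKM in WT-labelled DAUDI. In resistant DOHH2, S100A10 was thus high while both ANXA2 and AHNAK were at or near 0. PLAU, which encodes the plasminogen activator urokinase, had 1.29 FPKM (ibrutinib) and 1.57 FPKM (idelalisib) in resistant DOHH2 and 0.127 FPKM and 0.0618 FPKM in resistant DAUDI, and was listed at 0 in both WT-labelled libraries.

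Of 22 actin cortex genes 20 were kept, of which 10 were lower in each resistant DOHH2 library and 9 in each resistant DAUDI library. TPM2, a tropomyosin, had 0.211 FPKM (ibrutinib) and 0.0911 FPKM (idelalisib) in resistant DOHH2 against 82.6 FPKM in WT-labelled DOHH2, and 0.823 FPKM and 0.349 FPKM in resistant DAUDI against 99.6 FPKM in WT-labelled DAUDI. CRIP1, a small LIM protein, was low in resistant DOHH2 alone, with 0.124 FPKM (ibrutinib) and a listed 0 (idelalisib) against 116 FPKM in WT-labelled DOHH2, while resistant DAUDI had 172 FPKM and 163 FPKM against 113 FPKM in WT-labelled DAUDI. The difference between the lines was -7.31 for CRIP1 (limma adjusted p = 0.0119). It was -3.10 for CAPG, an actin-capping protein, and 1.43 for CNN2, a calponin (limma adjusted p = 0.0406 and 0.0291).

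Of 19 intermediate filament genes besides VIM 5 were kept, with 1 lower in each resistant DOHH2 library and 2 in each resistant DAUDI library. LMNB1, which encodes the nuclear lamin B1, had 41.9 FPKM (ibrutinib) and 37.0 FPKM (idelalisib) in resistant DOHH2 against 27.8 FPKM in WT-labelled DOHH2, and did not reach a difference of 1. Of 12 mesenchymal transcription factors and cadherins 5 were kept, with 4, 3, 2 and 2 lower in ibrutinib-resistant DOHH2, idelalisib-resistant DOHH2, ibrutinib-resistant DAUDI and idelalisib-resistant DAUDI. CDH1, which encodes E-cadherin, had 0.00639 FPKM in ibrutinib-resistant and a listed 0 in idelalisib-resistant DOHH2, against 26.6 FPKM in WT-labelled DOHH2, and ZEB2, a repressor of CDH1, had 7.23 FPKM (ibrutinib) and 7.98 FPKM (idelalisib) in resistant DOHH2 against 15.6 FPKM in WT-labelled DOHH2. In DAUDI, CDH1 had 0.207 FPKM (ibrutinib) and 0.0461 FPKM (idelalisib) in resistant cells against 26.0 FPKM in WT-labelled cells, and ZEB2 had 3.65 FPKM and 2.11 FPKM against 15.0 FPKM. VIM and CDH1 were thus both under 1 FPKM in resistant cells of both lines. Between the lines, limma called 2 of 7 CD44 ligand genes lower in resistant DOHH2, 1 higher and 2 lower of 14 linker genes, 1 higher of 8 partner genes, 1 higher and 1 lower of 6 galectin-1 binding genes, 4 higher and 2 lower of 20 actin cortex genes, and 0 of the 5 filament and 0 of the 5 mesenchymal genes. Some of these genes, such as PLAU and ANK3, were kept only for their level in resistant DOHH2, so these counts describe the lists and support no difference.

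**Figure D4:**
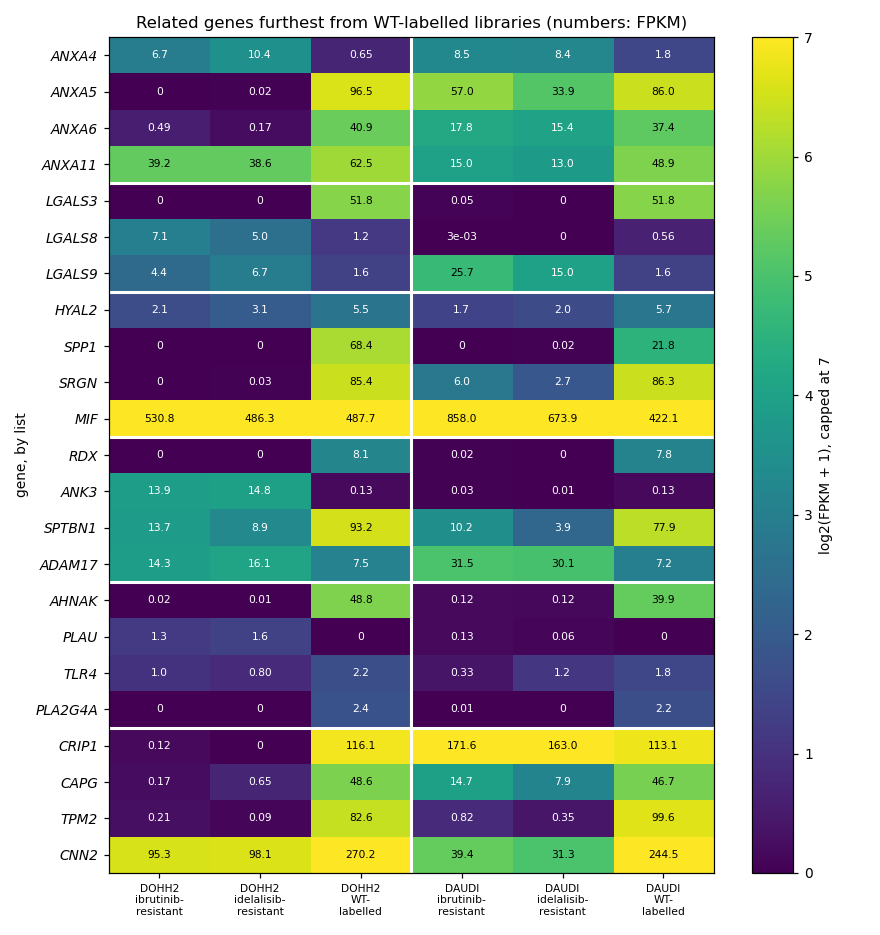
Up to 4 genes from each of 6 lists, those whose mean difference from the WT-labelled libraries was largest in absolute value. Blocks from top to bottom are annexins, galectins, CD44 ligands, CD44 linkers and sheddases, partners of annexins and S100 proteins, and actin cortex. Colour gives log2(FPKM + 1) and the number gives FPKM. ANXA5, ANXA6, SRGN and CRIP1 are low in resistant DOHH2 but not in resistant DAUDI to the same degree, and AHNAK, LGALS3 and RDX are low in all 4 resistant libraries.

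By likeness of profile over the 6 libraries, measured as the root mean square difference of centred log2(FPKM + 1) among 12178 candidate genes, VIM lay closest to MNDA (0.16), SLC12A7 (0.31), MIR4435-1HG (0.36) and TUBB6 (0.41). MNDA was also the nearest to CD44 (0.45), followed by GZMB (0.47), SLC12A7 (0.59) and MIR4435-1HG (0.66). S100A4 lay closest to IL4I1 (0.22), BATF (0.24), PRDM1 (0.26) and SLAMF7 (0.28). LGALS1 had 1 close neighbour, MPEG1 (0.38), with 11.6 FPKM (ibrutinib) and 2.60 FPKM (idelalisib) in resistant DOHH2 against 210 FPKM in WT-labelled DOHH2, and 1.49 FPKM and 0.710 FPKM in resistant DAUDI against 180 FPKM in WT-labelled DAUDI. LILRB4, BHLHE40 and ITM2C followed at 0.76, 0.87 and 0.88.

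Markers of other cell types were low beside the B cell markers, whose summed level was 1495 FPKM (ibrutinib) and 1577 FPKM (idelalisib) in resistant DOHH2 against 2350 FPKM in WT-labelled DOHH2, and 2213 FPKM and 2045 FPKM in resistant DAUDI against 1975 FPKM in WT-labelled DAUDI. The 10 myeloid markers summed to 3.13 FPKM and 2.01 FPKM in ibrutinib-resistant and idelalisib-resistant DOHH2 against 19.5 FPKM in WT-labelled DOHH2, and to 28.4 FPKM and 29.9 FPKM in resistant DAUDI against 16.3 FPKM in WT-labelled DAUDI. CD68 made up most of the sum in the WT-labelled libraries (18.7 FPKM in DOHH2 and 16.1 FPKM in DAUDI). The myeloid gene with the highest level in both resistant DAUDI libraries was LYZ, at 15.0 FPKM in idelalisib-resistant cells against 0.0884 FPKM in WT-labelled DAUDI. FCN1 had 6.98 FPKM (ibrutinib) and 5.58 FPKM (idelalisib) in resistant DAUDI and was listed at 0 in both WT-labelled and both resistant DOHH2 libraries. Of the 5 myeloid markers kept, 4 were higher and 1, CD68, lower in each resistant DAUDI library, and 0 were higher and 1 lower in each resistant DOHH2 library. The 11 T and NK cell markers summed to 1.49 FPKM to 4.08 FPKM in resistant libraries against 3.65 FPKM to 7.64 FPKM in WT-labelled ones, the 10 stromal markers to 4.60 FPKM to 17.6 FPKM against 1.45 FPKM to 1.74 FPKM, and the 7 erythroid markers to 0 to 0.145 FPKM against 0.0720 FPKM to 7.46 FPKM. Most of the stromal sum was ACTA2 in resistant DAUDI, at 17.1 FPKM (ibrutinib) and 5.03 FPKM (idelalisib). In resistant DOHH2 it was DCN, at 7.31 FPKM (ibrutinib) and 3.18 FPKM (idelalisib), and ACTA2, at 1.52 FPKM and 1.42 FPKM. The other stromal markers were under 1 FPKM in every library. The 9 epithelial markers summed to 0.845 FPKM to 1.42 FPKM in resistant libraries against 29.6 FPKM and 28.8 FPKM in WT-labelled DOHH2 and DAUDI, of which CDH1 was 26.6 FPKM and 26.0 FPKM. The part of other cells in the levels of CD44, VIM, LGALS1 and the S100 genes was not tested, and in bulk RNA fewer cells of a type and less RNA per cell cannot be told apart.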

How the data were processed

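Libraries of polyA RNA were made from 6 cultures with a directional kit, per the labels' protocols. bcl2fastq, cutadapt, TopHat2 and Cufflinks with hg19 are named in the submitters' processing notes. The sources used here do not state their versions. The deposited tables list FPKM per isoform, which the authors scaled to isoform length and mapped fragments, with FPKM bounds and a coverage signal that is not scaled, per the file headers. Bounds were not used, since 15 of 28 isoform values of the 9 genes over 1 FPKM lie outside their own. Read counts were not used, so absolute depth is unknown and no interval on a level can be given.

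FPKM were summed by gene symbol; isoforms with no symbol and 10 genes with a failed estimate were left out. Genes at 1 FPKM or more in at least 1 library were kept, and log2(FPKM + 1) was taken (pseudocount 1), which understates changes of low genes. With 1 library per group, a difference of 1 or more was called with no test. limma 3.58.1 (R 4.3.3, trend, two-sided, Benjamini-Hochberg over 12337 genes, threshold 0.05) was run on the 4 resistant libraries, and the procedure was tested on simulated data. Its residual and prior degrees of freedom were 1 and 1.93. Its p-values rest on how far the drug difference varied between the lines and on the trend of this spread over all genes. They do not rest on a spread between replicate cultures. A gene listed at 0 has no ratio.

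The 9 genes, the 17 lists (10 of related genes, 6 of cell type markers and 1 of housekeeping genes, with 214 names) and the tests were chosen with earlier results of these data known. Genes named besides the 9 are up to 4 of each list and the 4 nearest profiles of 4 members. The list genes are those whose difference from WT-labelled libraries, averaged over the 4 resistant libraries with its sign, was largest in absolute value. Differences of opposite direction in the 2 lines cancel in this average. S100 genes of the cluster and ANXA2 pseudogenes are named by position or sequence. Other settings tried were pseudocounts of 0.1 and 5, no filter or a 5 FPKM filter, 2 scalings, the most abundant isoform alone, and other model terms. The WT-labelled library of the other line, and ANXA2 summed with its pseudogenes, were added after seeing the data.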

Additional observations from a re-analysis of the deposited data

Results flagged for a closer look

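Of the members and the related genes named by the rule, which were the ones looked through, 4 had this split: both resistant DOHH2 libraries differed from the WT-labelled DOHH2 library in one direction, and both resistant DAUDI libraries from the WT-labelled DAUDI library in the other. These differences of differences, DOHH2 minus DAUDI in log2(FPKM + 1), were not tested, and each rests on 1 WT-labelled library per line. For S100A10 the value was 5.70, from a mean of 0.37 in resistant DOHH2 and -5.34 in resistant DAUDI; its idelalisib difference in DOHH2, 0.06, turned to -0.12 with median of ratios scaling, and the split is then gone. For ANK3 it was 3.90 (3.76 in DOHH2 and -0.14 in DAUDI), where all 3 DAUDI libraries were at or under 0.126 FPKM. CRIP1 ran the other way, with -7.35 (-6.79 in DOHH2 and 0.56 in DAUDI). For LGALS8 it was 2.29 (1.66 in DOHH2 and -0.64 in DAUDI), and WT-labelled DAUDI itself had 0.558 FPKM. The rule averages differences over both lines, so opposite differences cancel and genes that split can be left out. Genes of the lists outside this rule can split in the same way, as SPN did above.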

How the results depend on the processing

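The counts of members lower than the WT-labelled library, 7 and 7 in ibrutinib-resistant and idelalisib-resistant DOHH2 and 8 and 8 in DAUDI, were unchanged under every alternative run, including the WT-labelled library of the other line. With a pseudocount of 5, all genes called against WT-labelled libraries numbered 1841 and 1938 in ibrutinib-resistant and idelalisib-resistant DOHH2 (3775 and 3921 with 1) and 2185 and 1825 in DAUDI (4301 and 3836); between lines they numbered 1286 (ibrutinib) and 991 (idelalisib) instead of 2720 and 2303. Between drugs, all genes called were 350 and 70 in DOHH2 and 817 and 177 in DAUDI with pseudocounts of 0.1 and 5, instead of 133 and 432. With a pseudocount of 0.1, 2 members differed between drugs in DAUDI (S100A4 and ANXA2) instead of 0, and 6 (ibrutinib) and 5 (idelalisib) between lines instead of 3 and 2. The members added between lines were under 1 FPKM in the libraries compared, so nothing is read from that rise. Between idelalisib-resistant lines 1 member was called with a pseudocount of 5, with median of ratios scaling and with upper quartile scaling, where LGALS1 was at 0.32, 0.96 and 0.99. A bound of 0.1 FPKM gave 23 low values instead of 13.

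In limma the line contrast had 0 genes with no filter (4763 at an unadjusted p under 0.05) and 3362 with no drug term, instead of 1914. The drug contrast had 1 gene with a 5 FPKM filter instead of 0, SNORD83B (limma adjusted p = 0.0251), named after its values were seen. CD44 and VIM, from whose values under 1 FPKM no line difference is read, did not pass with a pseudocount of 5, no filter and no trend. S100A4, S100A6 and S100A11 passed with a pseudocount of 0.1 alone. S100A10 lost its call with no filter alone, and elsewhere its limma adjusted p was 0.00249 to 0.0286. The S100A10 difference was 8.77 and 3.42 with pseudocounts of 0.1 and 5. The CD44 drug difference of 0.02 turned to -0.0030 with median of ratios scaling and -0.0042 with upper quartile scaling. The causes were not tested. The limma drug contrast is paired by line, since line is a term of the fit; the labels give no replicate numbers to block on. Depth limits the values under 1 FPKM, whose order between libraries cannot be read without counts.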
